A study of Mus musculus with 8 samples.

Results

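MHC class I presentation genes were taken as 9 listed symbols, H2-K1, H2-D1, H2-T23, B2m, Tap1, Tap2, Tapbp, Nlrc5 and Erap1. Each symbol matched 1 gene in the gene symbol column of the deposited table, so the values below are those of 9 of its 39017 genes. Class I molecules carry peptides made inside a cell to its surface, where cytotoxic T cells read them. Each molecule is a heavy chain held by the light chain beta-2 microglobulin, and it is filled in the endoplasmic reticulum with peptides that the Tap1 and Tap2 transporter brings in, with tapasin as the loading chaperone and Erap1 as the peptide-trimming enzyme. Nlrc5 is the transactivator of class I genes, and B cells, like nearly all nucleated cells, express the pathway.

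The RNA came from iGBs, germinal center-like B cells obtained by culturing splenic B cells on 40LB feeder cells, a fibroblast line that expresses CD40L and BAFF, with 1 ng/mL IL-4. Cells of C57BL6/J mice of genotype Prmt5F/F Cγ1-cre, called Prmt5-null here, were compared with Cγ1-cre controls, 4 mice of each genotype, at day 4 of culture. The design also names separate experiments. No label ties a library to one of them, so the main test has no term for experiment. In both genotypes the Cre was present and was driven by the Cγ1 locus, which is active in activated B cells, and elutriation was used to part the B cells from the feeders before total RNA was extracted and depleted of ribosomal RNA. The comparison asks how the class I genes stand in iGBs that have lost Prmt5, an arginine methyltransferase. The Prmt5-null libraries of mice 10617, 10618, 10770 and 10771 held 47174851, 42752293, 43242655 and 46749607 reads on genes. The control libraries CTRL-10650 and CTRL-10370 held 41629143 and 50366174 reads, and CTRL-10596 and CTRL-10597 held 48664766 and 36731721. All values are normalized counts, that is, reads divided by the size factor of their library, and values are listed in these orders of mice.

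Prmt5 itself was checked first (ENSMUSG00000023110, chr14:54507187-54517525, GRCm38, minus strand). It stood at 1291, 1994, 1060 and 1808 normalized counts in the Prmt5-null libraries and at 13087, 11084, 11657 and 11267 in the control libraries. No Prmt5-null library came near the control range, as the genotype labels give. The fitted level was 12.7% of control (95% CI 9.87 to 16.3), where percentages of control here and below are fitted on the log2 scale and are not ratios of the printed means, with a log2 fold change of −2.98 (limma adjusted p = 6.14e-06, n = 4 mice per genotype). Genotypes were compared here and below with limma on log2 values with 1 added to each count, and p was adjusted over all 16250 genes whose mean was at least 10.

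The heavy chains and the light chain fell in Prmt5-null iGBs, and the transporter, the chaperone, the trimming enzyme and the transactivator did not pass the test. All 9 genes passed the filter, with at least 3305 reads in every library. At an adjusted p below 0.05, 4 of 9 were lower (H2-K1, H2-D1, H2-T23 and B2m), against 7.33% of all 16250 genes tested (1191 genes) and 8.29% of the 2231 genes at least as abundant as Nlrc5, the least abundant of the 9. With a change of at least 1.5-fold required as well, 3 of 9 were lower, against 2.99% of all genes. None of the 9 was higher in limma at an adjusted p below 0.05 (0 of 9), against 6.51% of all genes, or 3.49% with the fold limit. At an unadjusted limma p below 0.05, 1 of 9, Tap2, was higher, as were 2365 of all 16250 genes. On the recovered reads, edgeR gave 4 of 9 lower and 0 higher, against 1174 and 1100 of all genes, and DESeq2 gave 4 and 0, against 1551 and 1524. In 4 of 9 genes (H2-K1, H2-D1, B2m and Tapbp) all Prmt5-null values lay below all control values, against 10.2% of all genes. The median log2 fold change of the 9 genes was −0.14, and that of all genes tested was 0.00. Since the cultures were measured in bulk, fewer cells with high class I RNA and less class I RNA per cell cannot be told apart.

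**Figure D1:**
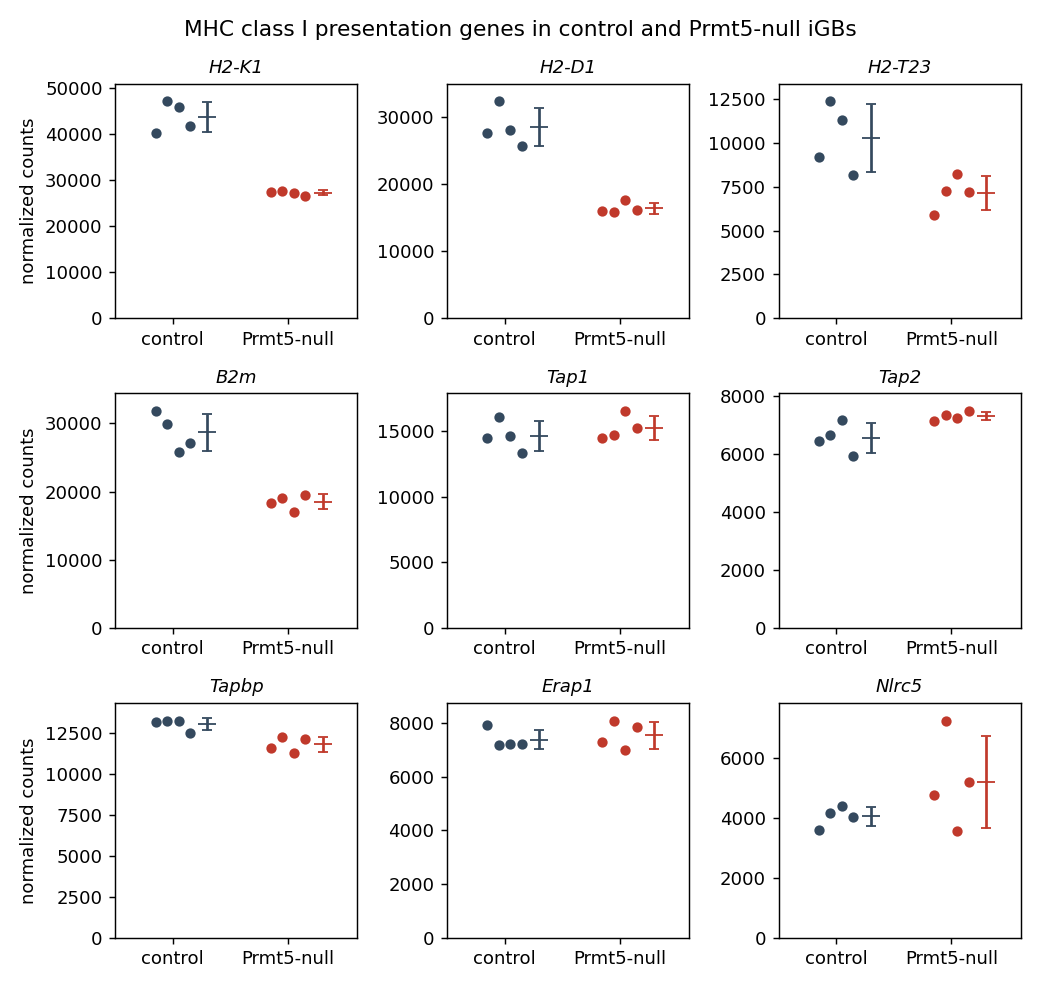
Normalized counts of the 9 class I genes in each library, with the mean and SD (n = 4 mice) beside the points of control (dark) and Prmt5-null (red) iGBs. For H2-K1, H2-D1, B2m and Tapbp the points of the genotypes do not overlap, while those of Tap1, Tap2, Erap1, Nlrc5 and H2-T23 do.

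H2-K1 and H2-D1 encode the classical heavy chains K and D. H2-K1 (ENSMUSG00000061232, chr17:33996017-34000347, minus strand) had 27352, 27689, 27210 and 26434 normalized counts in the Prmt5-null libraries. In the control libraries it had 40277, 47136, 45846 and 41740. The Prmt5-null libraries lay close together, with a coefficient of variation of 1.95%, and all lay far below the lowest control library, whereas the controls varied by 7.46%. The means were 27171 ± 531 and 43750 ± 3264 (SD, n = 4), and the log2 fold change was −0.68 (95% CI −0.86 to −0.51, limma adjusted p = 0.000274), which left 62.2% of the control level.

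H2-D1 (ENSMUSG00000073411, chr17:35262730-35267499, plus strand) had 15942, 15777, 17584 and 16191 normalized counts in the Prmt5-null libraries and 27626, 32397, 28125 and 25709 in the control libraries. The highest Prmt5-null library, 10770, was still far below the lowest control library, CTRL-10597. The means were 16374 ± 825 and 28464 ± 2821 (SD, n = 4), with a log2 fold change of −0.79 (95% CI −0.98 to −0.61, limma adjusted p = 0.000176), or 57.7% of the control level. The exact permutation test over the 4 and 4 libraries gave 0.0286 (two-sided) for H2-K1, H2-D1 and B2m alike, which is the smallest p that this design allows.

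H2-T23 encodes the nonclassical heavy chain Qa-1 (ENSMUSG00000067212, chr17:36029773-36032855, minus strand). Its normalized counts were 5915, 7237, 8245 and 7208 in the Prmt5-null libraries and 9223, 12413, 11337 and 8178 in the control libraries. The genotypes overlapped here, as Prmt5-null library 10770 was slightly above control library CTRL-10597. The means were 7151 ± 955 and 10288 ± 1933 (SD, n = 4), the log2 fold change was −0.52 (95% CI −0.81 to −0.22, limma adjusted p = 0.0255), and the exact permutation p was 0.0571. The call depended on single libraries. Without Prmt5-null 10617 the limma adjusted p was 0.073, without Prmt5-null 10771 it was 0.0611, without control CTRL-10370 it was 0.0684 and without control CTRL-10596 it was 0.0801.

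B2m encodes the light chain shared by all these heavy chains, and it lies on another chromosome than they do (ENSMUSG00000060802, chr2:122147686-122153083, plus strand). Its normalized counts were 18361, 19050, 17073 and 19536 in the Prmt5-null libraries and 31854, 29918, 25844 and 27195 in the control libraries. The lowest control library, CTRL-10596, was above the highest Prmt5-null library, 10771. The means were 18505 ± 1070 and 28703 ± 2699 (SD, n = 4), and the log2 fold change was −0.63 (95% CI −0.82 to −0.44, limma adjusted p = 0.000684), or 64.6% of the control level. B2m passed the adjusted p without any 1 library, and without control CTRL-10650 its log2 fold change of −0.58 was under the 1.5-fold limit.

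Tap1 and Tap2 encode the subunits of the peptide transporter. Tap1 (ENSMUSG00000037321, chr17:34187553-34197225, plus strand) had 14491, 14722, 16572 and 15291 normalized counts in the Prmt5-null libraries and 14497, 16110, 14642 and 13333 in the control libraries. These values interleave, and the log2 fold change of 0.06 had a 95% CI of −0.11 to 0.24 (limma adjusted p = 0.656). That interval lay wholly above the intervals of H2-K1, H2-D1 and B2m, and the difference between the genes was not tested. Tap2 (ENSMUSG00000024339, chr17:34203527-34216321, plus strand) had 7138, 7335, 7241 and 7475 normalized counts in the Prmt5-null libraries and 6440, 6655, 7155 and 5924 in the control libraries. Only control CTRL-10596 reached into the Prmt5-null range, and the log2 fold change was 0.16 (95% CI 0.00 to 0.32, limma adjusted p = 0.169).

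Tapbp encodes tapasin (ENSMUSG00000024308, chr17:33915899-33929292, plus strand). It had 11555, 12249, 11264 and 12136 normalized counts in the Prmt5-null libraries and 13174, 13251, 13209 and 12503 in the control libraries. No Prmt5-null library reached a control library, yet the difference was small, with 90.5% of the control level, a log2 fold change of −0.14 (95% CI −0.29 to 0.00) and a limma adjusted p of 0.173. Its exact permutation p was 0.0286, the smallest possible. Erap1 (ENSMUSG00000021583, chr13:74639568-74693201, plus strand) ranged from 6990 to 8093 normalized counts in the Prmt5-null and from 7190 to 7913 in the control libraries. Its log2 fold change was 0.03 (95% CI −0.13 to 0.19, limma adjusted p = 0.811), and without Prmt5-null 10618 it was −0.0017.

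Nlrc5, the transactivator, had a higher mean in Prmt5-null than in control iGBs and did not pass the test (ENSMUSG00000074151, chr8:94434356-94527272, plus strand). Its normalized counts were 4753, 7255, 3576 and 5190 in the Prmt5-null libraries and 3616, 4164, 4403 and 4029 in the control libraries. The Prmt5-null libraries spread widely, from the lowest value of all 8 in 10770 to the highest in 10618, with a coefficient of variation of 29.5%, against 8.14% in controls. The means were 5194 ± 1534 and 4053 ± 330 (SD, n = 4), with a log2 fold change of 0.32 (95% CI −0.05 to 0.68, limma adjusted p = 0.234). Without Prmt5-null 10770 the log2 fold change was 0.48 and the limma adjusted p was 0.0275, and without Prmt5-null 10618 they were 0.14 and 0.48. Among the Prmt5-null libraries, Nlrc5 and Prmt5 had the same order, 10618, 10771, 10617 and 10770 from high to low. This order was noticed after the values were seen, and with 4 libraries no relation was tested.

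Levels of different genes were compared as normalized counts per kb of exonic length, which joins all annotated exons of a gene. This length can be well above that of a single transcript. It was 2938 bases for H2-K1, 2889 for H2-T23, 5476 for Tap1 and 3628 for Tapbp. Their longest coding transcripts had 1619, 1472, 2953 and 2898 bases. The order below holds for the joined lengths only, and other lengths were not tested. In control iGBs, B2m was the highest at 33375 ± 3139 per kb (SD, n = 4 mice), then H2-K1 at 14891 ± 1111 and H2-D1 at 11037 ± 1094. Those 3 did not overlap one another between libraries. Tapbp (3593 ± 98.1) and H2-T23 (3561 ± 669) overlapped, and H2-T23 also overlapped Tap1 (2675 ± 208). Tap2 followed at 1731 ± 135, Erap1 at 1014 ± 48.8 and Nlrc5 at 477 ± 38.8, each apart from its neighbours. In Prmt5-null iGBs the level of B2m was 21517 ± 1244 per kb, that of H2-K1 9248 ± 181 and that of H2-D1 6349 ± 320. H2-T23, at 2475 ± 330 per kb, then had a lower mean than Tap1, at 2788 ± 170.

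Ratios of normalized counts within a library do not depend on the size factor. The pairs were chosen after their values were seen, so the ratios are a description with no test. The H2-D1 to Tap1 ratio was 1.10, 1.07, 1.06 and 1.06 in the Prmt5-null libraries and 1.91, 2.01, 1.92 and 1.93 in the control libraries. It was nearly constant within each genotype and far apart between them. The H2-K1 to Tap1 ratio ran from 1.64 to 1.89 in Prmt5-null and from 2.78 to 3.13 in control libraries, and the B2m to Tap1 ratio from 1.03 to 1.29 and from 1.77 to 2.20. The H2-K1 to B2m ratio overlapped between the genotypes, with 1.35 to 1.59 in Prmt5-null and 1.26 to 1.77 in control libraries.

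Across the 8 libraries, H2-K1 and H2-D1 had a Pearson r of 0.982 on the log2 scale, and after the mean of each genotype was taken off r was 0.629. For H2-K1 and B2m the same values were 0.916 and −0.352. H2-D1 and Tap1 went the other way, with r = −0.112 over the 8 libraries and 0.964 within genotypes, and for H2-T23 and Tap1 r was 0.267 and 0.894. These values describe 8 libraries whose points share the genotype difference and 1 size factor per library.

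Other class I heavy chains were followed in a list of 23 genes with nonclassical and class I-like molecules. The table held 20 of them, without H2-Q8, H2-Q9 and H2-T9, and 17 passed the filter, without H2-T3, H2-M2 and H2-M9. Of these 17, 8 were lower at a limma adjusted p below 0.05, against 7.33% of all genes, 4 of them by at least 1.5-fold, against 2.99%, and the median log2 fold change was −0.45, with 14 below 0 and 3 above. Of the 3, Fcgrt, chosen after its values were seen, was higher in every Prmt5-null library than in every control (log2 fold change 0.52, limma adjusted p = 0.0994). At an adjusted p below 0.05 none of the 17 was higher in limma, edgeR or DESeq2 (0 in each). At an unadjusted limma p below 0.05, 1 of them was higher, as were 2365 of all 16250 genes. The count of 8 fell to 5 without Prmt5-null 10617, Prmt5-null 10771 or control CTRL-10596. Without Prmt5-null 10618 it was 8 lower and 1 higher, and with a block for experiment 7 to 10 were called over the placements.

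H2-Q7, a Qa-2 heavy chain gene (chr17:35439155-35443773), changed most of these genes. It had 759, 719, 619 and 679 normalized counts in the Prmt5-null libraries and 1609, 2019, 1596 and 1793 in the control libraries. The genotypes were far apart, with a log2 fold change of −1.33 (95% CI −1.56 to −1.11, limma adjusted p = 2.53e-05, n = 4). H2-Q6 had 2002 ± 116 and 4094 ± 331 normalized counts (SD, n = 4), with a log2 fold change of −1.03 (limma adjusted p = 2.72e-05). Both H2-Q6 and H2-Q7 share stretches of 100 bases with H2-D1. Only reads that map to 1 place were counted, and sequence shared among the genes of this list was not measured. Hfe, a class I-like gene of iron control, had 72.1 ± 6.91 and 136 ± 29.3 (log2 fold change −0.88, limma adjusted p = 0.00927). H2-T24 had a log2 fold change of −0.74 (limma adjusted p = 0.0192), and its adjusted p was 0.0566 without Prmt5-null 10617 and 0.0572 without control CTRL-10596. H2-Q4, the most abundant of the list at 5325 ± 746 normalized counts in controls, had a log2 fold change of −0.44 (limma adjusted p = 0.0161, and 0.0527 without Prmt5-null 10771).

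**Figure D2:**
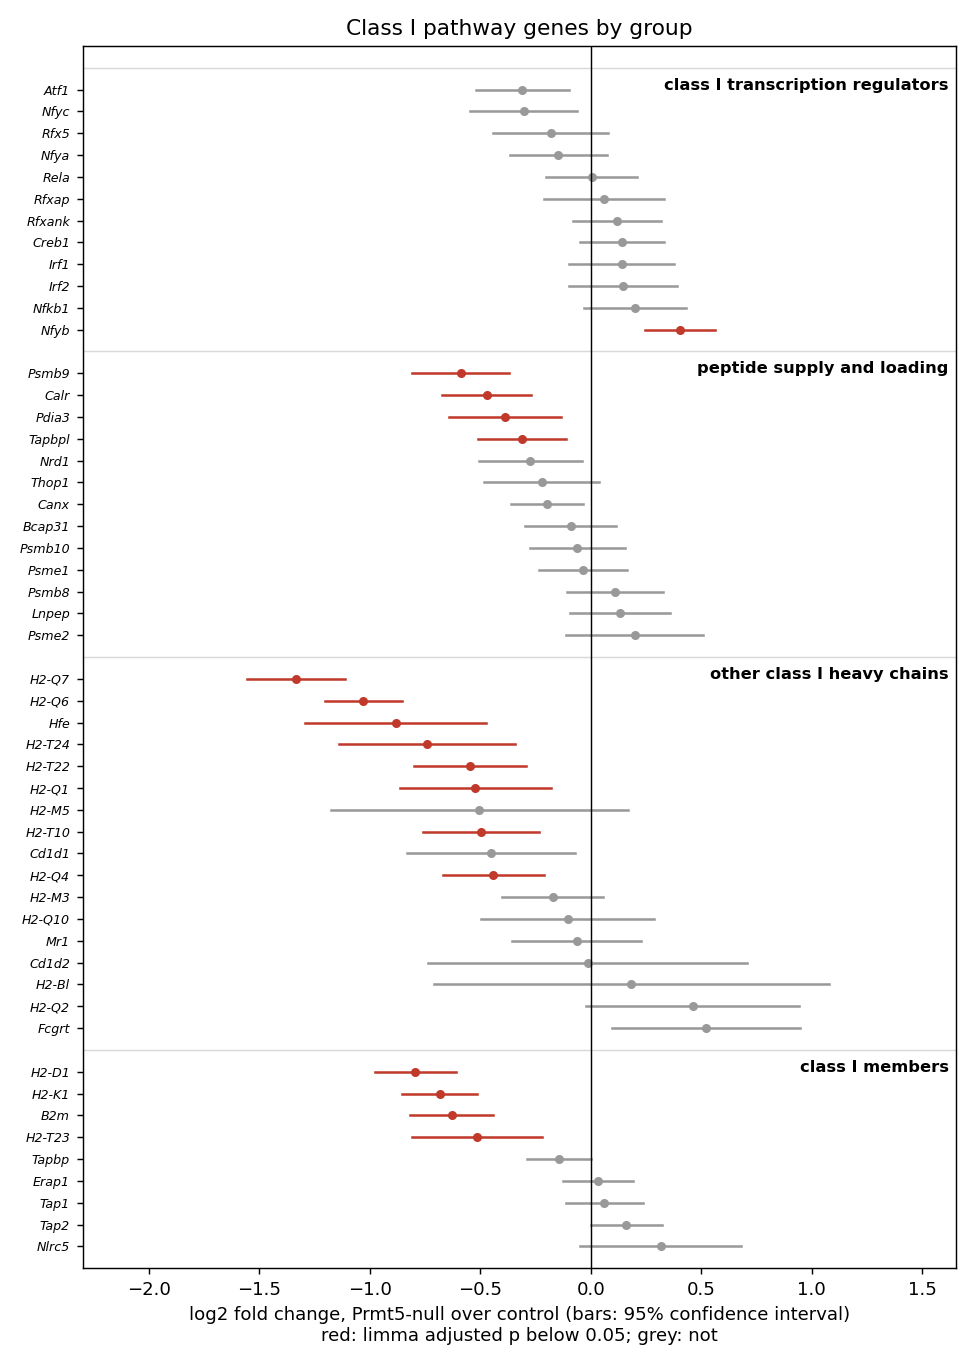
Log2 fold change (Prmt5-null over control, n = 4 mice each) of the 9 class I genes and of tested genes of 3 further lists, with 95% confidence intervals as bars and limma adjusted p below 0.05 in red. Of the 17 other heavy chains, 8 are red and below 0, down to −1.33 for H2-Q7, and of the regulators shown 1 is red, Nfyb, at 0.40.

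Peptide supply and loading was followed in 13 genes, of which 4 were lower and 0 higher at a limma adjusted p below 0.05, against 7.33% and 6.51% of all genes, with a median log2 fold change of −0.20. At an unadjusted limma p below 0.05 there were 6 lower and 0 higher, against 2390 and 2365 of all 16250 genes. On the recovered reads edgeR gave 3 and 0, against 1174 and 1100, and DESeq2 gave 5 and 0, against 1551 and 1524. Psmb9, the immunoproteasome subunit encoded head to head with Tap1, had 3671, 3989, 4439 and 3898 normalized counts in the Prmt5-null libraries and 6088, 7008, 6039 and 5042 in the control libraries. All Prmt5-null libraries lay below all controls, with a log2 fold change of −0.59 (limma adjusted p = 0.0028), beside 0.06 for its neighbour Tap1. The Psmb9 to Tap1 ratio ran from 0.253 to 0.271 in Prmt5-null and from 0.378 to 0.435 in control libraries. Psmb8, the partner subunit next to Tap1 on its other side, was chosen after its values were seen and had a log2 fold change of 0.11 (limma adjusted p = 0.505).

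Calr, the calreticulin gene and the most abundant of that list, had 52656 ± 3259 normalized counts in Prmt5-null and 73118 ± 6603 in control iGBs (SD, n = 4), with a log2 fold change of −0.47 (limma adjusted p = 0.00604). Pdia3, a disulfide isomerase of the loading complex, had a log2 fold change of −0.39 (limma adjusted p = 0.046). Its adjusted p was 0.122 without Prmt5-null 10617, 0.0815 without 10618, 0.0634 without 10771, 0.0995 without control CTRL-10650, 0.0612 without CTRL-10370 and 0.0925 without CTRL-10596. Tapbpl, a relative of tapasin, had −0.31 (limma adjusted p = 0.0422), which lay between 0.0571 and 0.129 without any 1 library other than Prmt5-null 10770.

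Among 13 class I transcription regulators, 0 were lower and 1 was higher at a limma adjusted p below 0.05, against 7.33% and 6.51% of all genes, so the higher share is near that of all genes. The median log2 fold change was 0.06. At an unadjusted limma p below 0.05, 2 were lower and 1 higher, edgeR gave 0 lower and 1 higher, and DESeq2 gave 1 and 1. Of all 16250 genes these gave 2390 and 2365, 1174 and 1100, and 1551 and 1524. The 1 gene was Nfyb, a subunit of the CCAAT-binding factor NF-Y. It had 3196, 3330, 3680 and 3492 normalized counts in the Prmt5-null libraries and 2532, 2512, 2729 and 2575 in the control libraries. The genotypes did not overlap, and the log2 fold change was 0.40 (limma adjusted p = 0.00379, n = 4). Nfkb1, the most abundant of the list, had a log2 fold change of 0.20 (limma adjusted p = 0.237).

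A list of 35 interferon-induced genes was read beside the class I genes. Of these, 3 were lower and 2 higher at a limma adjusted p below 0.05, which is near the 7.33% and 6.51% of all genes, and the median log2 fold change was −0.13. The 2 higher genes were Gbp2 and Gbp3, which encode guanylate-binding proteins. Gbp3 had 3111, 4012, 3946 and 3875 normalized counts in the Prmt5-null libraries and 1783, 2536, 1796 and 1977 in the control libraries. No library overlapped, and the log2 fold change was 0.89 for Gbp3 (limma adjusted p = 0.000684) and 0.96 for Gbp2 (limma adjusted p = 0.00369). Of the lower genes, Isg20 had a log2 fold change of −0.48 (limma adjusted p = 0.0086). Cxcl10, at 32.5 and 64.3 normalized counts, had −0.99 (limma adjusted p = 0.02, and 0.0522 without Prmt5-null 10771, 0.0514 without control CTRL-10650 and 0.0612 without control CTRL-10370). Ifi35 had −0.36 (limma adjusted p = 0.0441), which was 0.117 without Prmt5-null 10617, 0.0529 without 10618, 0.108 without 10771, 0.0583 without control CTRL-10650, 0.114 without CTRL-10370 and 0.123 without CTRL-10596. Of 7 genes for interferon receptors and their kinases, 1 was lower and 0 higher in limma, edgeR and DESeq2, and also at an unadjusted limma p below 0.05. Of all genes 7.33% were lower in limma, and 1 call among 7 genes is too few to compare with that share. The lower gene was Tyk2, with a log2 fold change of −0.48 (limma adjusted p = 0.00663), and Jak1, the most abundant, had 0.07 (limma adjusted p = 0.589).

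Most class I heavy chain genes sit in the MHC on chromosome 17, so the span from the first to the last listed MHC gene was described as a whole (chr17:33915899-37483552, GRCm38). The interval was chosen after the values were seen and has no test of its own. Of the 15 listed class I heavy chain genes tested there, 10 were lower and 0 higher at a limma adjusted p below 0.05, or 66.7%, with a median log2 fold change of −0.52. At an unadjusted limma p below 0.05, by edgeR and by DESeq2 the counts were also 10 and 0. The other class I pathway genes there (Tap1, Tap2, Tapbp, Psmb8 and Psmb9) had 1 of 5 lower, Psmb9, and a median of 0.06. The listed class II genes there had 3 of 8 lower and 0 higher, or 37.5%, with a median of −0.14. H2-Eb2, a class II gene outside the lists, was also lower (−0.98, limma adjusted p = 0.000186) and is counted among the 145 genes that follow. The 145 genes of the interval in none of the lists also had 27 lower and 0 higher, or 18.6%, with a median of −0.15. For these 145, an unadjusted limma p below 0.05 gave 39 lower and 7 higher, edgeR gave 26 and 0, and DESeq2 gave 30 and 3. Of all 16250 genes these gave 2390 and 2365, 1174 and 1100, and 1551 and 1524. Outside the interval, chromosome 17 had 54 lower and 48 higher of 635 genes. H2-Ke6 (log2 fold change −1.37, limma adjusted p = 0.000142) and Btnl1 (−1.65, limma adjusted p = 0.0011), both chosen after their values were seen, were among the 27. So was H2-Q5 (−0.93, limma adjusted p = 0.000295), a class I gene outside the lists, while H2-K2 (−0.08, limma adjusted p = 0.761) and H2-Q3 (−0.25, limma adjusted p = 0.626), also class I genes outside the lists, were not past the threshold. These 3 were chosen after their values were seen.

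**Figure D3:**
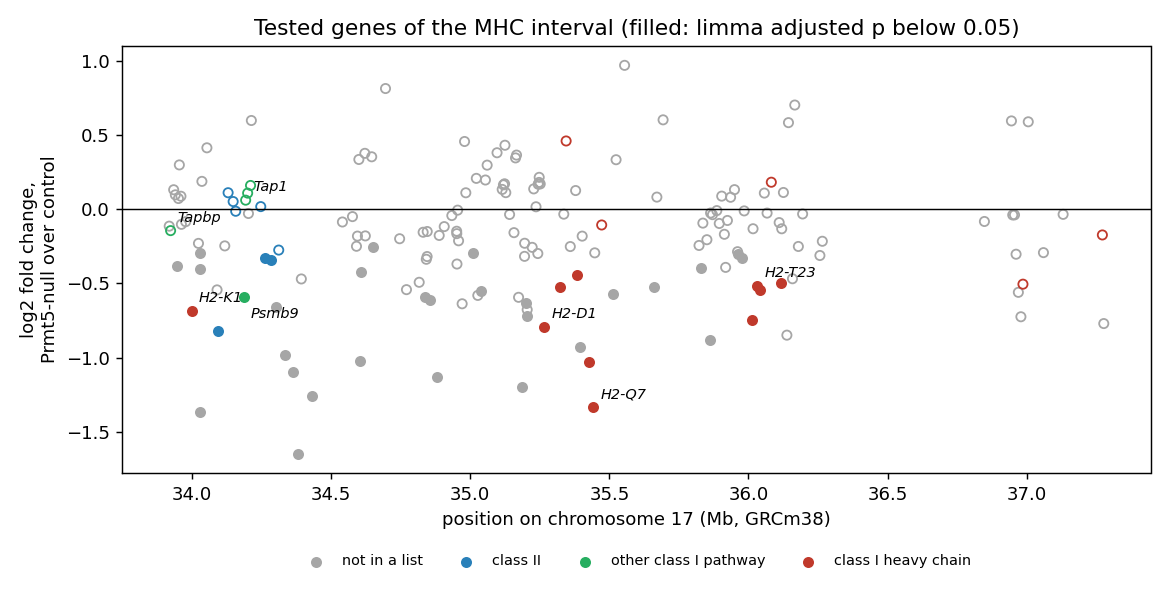
Log2 fold change (Prmt5-null over control, n = 4 mice each) of the tested genes of the MHC interval against position on chromosome 17 (Mb, GRCm38), with filled points for limma adjusted p below 0.05 and colors for the class of the listed genes. All filled points lie below 0, among them H2-K1 at −0.68 and H2-D1 at −0.79, while Tap1 lies at 0.06.

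Nlrc5 was the 1 gene of the 9 with deposited rMATS splicing events, and it had 2. The authors' inclusion levels come as lists of 4 per group that name no library, so they are given as deposited, with no SD and no test. The headers do not name the genotypes either, and which list is control was read from a figure legend of the paper, so the direction rests on that reading. At the alternative 5′ splice site of the exon at chr8:94484070-94484156 (GRCm38, plus strand), the longer form had levels of 0.118, 0.096, 0.077 and 0.113 in controls and 0.258, 0.324, 0.183 and 0.261 in Prmt5-null iGBs. Every Prmt5-null level was above every control level, on 38 to 71 reads a library in controls and 38 to 88 in Prmt5-null. The shorter form of 63 bases is exon 10 of 49 in the protein-coding transcript Nlrc5-201. The longer form of 87 bases is exon 3 of 11 in Nlrc5-205, which GENCODE annotates as a target of nonsense-mediated decay, with the annotated stop codon TAA at chr8:94484149-94484151, 5 bases before the exon end. The exon is shown because its 24 added bases, in capitals, hold that stop codon.
Nlrc5 exon, longer form: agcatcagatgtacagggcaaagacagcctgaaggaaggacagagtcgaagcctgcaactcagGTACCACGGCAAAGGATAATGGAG

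In the other event, at Nlrc5 exons 14 and 15 of Nlrc5-201 (chr8:94488583-94488651 and chr8:94489513-94489581, 69 bases each), the level of the first exon was 0.589, 0.468, 0.684 and 0.554 in controls. It was 0.44, 0.384, 0.468 and 0.468 in Prmt5-null iGBs. The lists touched at 0.468, on 47 to 112 reads a library. The event is deposited as a pair of mutually exclusive exons, although Nlrc5-201 holds both. Across the 7 lists of class I, interferon and class II genes, 11 of 108 genes had 14 deposited events, and 8 events had at least 20 reads in each library. The share of all genes with a deposited event was not counted. These counts and that of the class I genes therefore cannot be read as many or few.

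RefSeq promoter windows (GRCm38.p6, 250 bases before to 50 after the RefSeq start) were matched by symbol for 7 of the 9 genes. Tap2 and Nlrc5 were not matched, and of 2 windows listed for H2-K1 the one nearer to its GENCODE start was used. The RefSeq start lay inside the GENCODE gene by 3579 bases in Tapbp, 364 in H2-D1, 285 in Erap1, 154 in H2-T23, 3 in Tap1 and 1 in B2m. Both strands were searched for letters of the elements that class I promoters are known for, and a match is a description of letters, not a site or a cause. GAAANNGAA, the core of the interferon response element, was present in 3 of 7 (H2-T23, B2m and Erap1), against 8.56% of all 32851 windows. CCAAT was present in 6 of 7, against 37.4%, TGACG in 4 of 7 (H2-K1, H2-D1, B2m and Tap1), against 20.8%, and TTCNNNGAA in 0 of 7, against 8.3%. GGGATTCCC, a kappa B sequence, was present in H2-K1 and H2-D1, 2 of 7, against 0.353% of all windows. GAANNGAAA, which was added after these promoters were seen and can overlap GAAANNGAA, was also present in 2 of 7, H2-K1 and H2-D1, against 7.52%. In the 150 bases before the start alone, GAAANNGAA was present in 3 of 7 (3.95% of all windows), CCAAT in 4 (24.5%), TGACG in 4 (13.3%), TTCNNNGAA in 0 (4.09%), GGGATTCCC in 1, H2-K1 (0.14%), and GAANNGAAA in 2 (3.56%).

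H2-K1 and H2-D1 carried the same series of matches with the same spacing. From GGGATTCCC to GAANNGAAA the first bases lay 20 apart, from there to TGACG 49, and from there to CCAAT (here on the other strand, ATTGG) 25. The series began 110 bases before the RefSeq start in H2-K1 and 170 in H2-D1. For H2-D1 the RefSeq start lies 364 bases inside the GENCODE gene given above, so the series of H2-D1 lies within that gene, whereas for H2-K1 the starts are the same base. B2m had its TGACG 78 and its ATTGG 53 bases before the start, again 25 apart. That spacing was chosen after the promoters were seen, and it was present in 3 of 7 members (H2-K1, H2-D1 and B2m) and in 31 of all 32851 windows (0.0944%). The windows of these genes, which fell, and of Tap1, which did not pass the test, are shown 5′ to 3′ on the strand of the gene, with every motif match in capitals. H2-K1 is chr17:34000298-34000597 (minus strand), H2-D1 is chr17:35262844-35263143 (plus), B2m is chr2:122147437-122147736 (plus) and Tap1 is chr17:34187306-34187605 (plus).
H2-K1: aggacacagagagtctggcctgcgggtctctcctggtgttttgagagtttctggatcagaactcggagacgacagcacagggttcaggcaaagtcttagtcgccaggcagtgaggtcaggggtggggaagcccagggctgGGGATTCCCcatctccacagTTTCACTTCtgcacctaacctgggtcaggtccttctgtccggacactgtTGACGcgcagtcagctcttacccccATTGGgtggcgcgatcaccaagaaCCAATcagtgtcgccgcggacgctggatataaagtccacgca
H2-D1: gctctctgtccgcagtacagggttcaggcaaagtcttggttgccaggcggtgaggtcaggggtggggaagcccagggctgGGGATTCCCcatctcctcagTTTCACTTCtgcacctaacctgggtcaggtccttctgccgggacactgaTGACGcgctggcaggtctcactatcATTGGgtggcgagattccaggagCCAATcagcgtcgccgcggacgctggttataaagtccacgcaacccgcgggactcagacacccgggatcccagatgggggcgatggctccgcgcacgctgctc
B2m: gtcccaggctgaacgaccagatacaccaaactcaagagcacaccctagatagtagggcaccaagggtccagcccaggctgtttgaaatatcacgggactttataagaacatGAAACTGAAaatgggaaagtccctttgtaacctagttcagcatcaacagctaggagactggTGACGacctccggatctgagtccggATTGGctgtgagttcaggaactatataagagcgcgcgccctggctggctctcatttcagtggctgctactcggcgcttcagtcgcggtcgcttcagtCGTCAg
Tap1: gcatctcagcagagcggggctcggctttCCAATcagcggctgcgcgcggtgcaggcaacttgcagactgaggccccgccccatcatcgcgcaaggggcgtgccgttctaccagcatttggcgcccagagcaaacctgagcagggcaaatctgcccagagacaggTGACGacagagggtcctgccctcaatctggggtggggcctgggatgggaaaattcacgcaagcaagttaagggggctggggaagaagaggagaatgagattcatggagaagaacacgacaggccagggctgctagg

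Only reads that map to 1 place were counted, so sequence shared with other genes limits some values. Of the stretches of 100 bases in the longest coding transcript, 0% in H2-K1, B2m and Nlrc5 were found in a transcript of another gene. The share was 4.64% in H2-D1 and 7.28% in H2-T23. Both share stretches with genes that include the class I genes H2-Q1 and H2-T22, and H2-T23 also shares some with Hook2 and Rab33b. It was 3.96% in Tap1, with Psmb9, 5.35% in Tap2, 14.0% in Tapbp and 13.3% in Erap1, with Cast. Tapbp overlaps Zbtb22 on the same strand by 3422 bases, and Nlrc5 overlaps Mir7072 by 60. On opposite strands Tap1 and Psmb9 overlap by 212 bases, Erap1 and Cast by 834, Tap2 overlaps Gm20496 and Gm15821, Tapbp overlaps Gm19412, Nlrc5 overlaps 9330175E14Rik, B2m lies within Patl2, and H2-T23 lies within the antisense gene A930015D03Rik. The libraries were stranded, but the strand setting of the counting was not given, so the part of antisense reads in these values was not tested.

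Marker lists were read beside the class I genes. The 9 B cell markers summed to 166583, 195588, 163028 and 171666 normalized counts in the Prmt5-null and to 161393, 175917, 185933 and 173335 in the control libraries, which overlap. Cd79a was the 1 of 9 that fell (log2 fold change −0.74, limma adjusted p = 0.000327), against 7.33% of all genes. Both edgeR and DESeq2 also gave 1 lower and 0 higher, and an unadjusted limma p below 0.05 gave 1 and 1. Of all 16250 genes these gave 1174 and 1100, 1551 and 1524, and 2390 and 2365. Of 16 fibroblast markers, 14 were tested (not Lum and Postn). At a limma adjusted p below 0.05, 3 (Col3a1, Sparc and Col1a2) were higher and 0 lower, against 6.51% and 7.33% of all genes. The median log2 fold change was 0.75 and 14 of 14 were above 0, as were 8184 of all 16250 genes. An unadjusted limma p below 0.05 gave 9 higher and 0 lower, edgeR 4 and 0, and DESeq2 8 and 0. Of all genes these gave 2365 and 2390, 1100 and 1174, and 1524 and 1551. The fibroblast marker sums were 13664, 7985, 11223 and 9783 in the Prmt5-null and 9210, 5333, 6474 and 7698 in the control libraries, which overlap, and none of the 14 tested was at 0. Col1a2, the most abundant, had 2783 ± 745 and 1666 ± 318 normalized counts (SD, n = 4), with a log2 fold change of 0.72 (limma adjusted p = 0.0213, and 0.054 without Prmt5-null 10617, 0.061 without control CTRL-10370 and 0.0604 without control CTRL-10596). Sparc (log2 fold change 0.83, limma adjusted p = 0.0368) had an adjusted p of 0.1 without Prmt5-null 10617, 0.068 without 10770, 0.0644 without 10771, 0.0911 without CTRL-10370, 0.103 without CTRL-10596 and 0.069 without CTRL-10597, and Col3a1 had a log2 fold change of 1.02 (limma adjusted p = 0.0136). The part of feeder cell RNA in the class I values was not tested.

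Of 7 T cell markers, Cd3e was at 0 in all 8 libraries and 2 passed the filter. Their sums were 499, 441, 383 and 346 normalized counts in the Prmt5-null and 698, 772, 796 and 761 in the control libraries, nearly all of it Lck (log2 fold change −0.94, limma adjusted p = 0.000852). Of 9 myeloid markers, S100a8 was at 0 in all 8 libraries and 4 passed the filter. Of these 4, 1 was higher, Emr1 (log2 fold change 0.70, limma adjusted p = 0.0424), against 6.51% of all genes. There was also 1 by edgeR and DESeq2, against 1100 and 1524 of all genes, and 2 at an unadjusted limma p below 0.05, against 2365 of all 16250 genes. The adjusted p of Emr1 was 0.0882 without Prmt5-null 10618, 0.0761 without 10770, 0.0661 without 10771, 0.0874 without control CTRL-10370, 0.0604 without CTRL-10596 and 0.103 without CTRL-10597. The myeloid sums were 1978, 2213, 2444 and 2222 in the Prmt5-null and 2053, 1718, 1812 and 1796 in the control libraries, with Zbtb46 the most abundant. Natural killer cell markers summed to at most 96.3 in a library, and 1 of 4, Gzmb, was tested. Gzmb had 33.0 ± 15.9 normalized counts in Prmt5-null and 37.6 ± 30.0 in control iGBs (SD, n = 4), and its log2 fold change had no steady sign, with 0.22 in limma (adjusted p = 0.865), −0.21 in edgeR and −0.19 in DESeq2, and −0.52 in limma without control CTRL-10597. The part of other cell types in the class I values was not tested.

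The genes most like each class I gene were those with the highest Pearson r over the 8 libraries among 13291 genes with a mean of at least 50. For H2-K1 these were Icam2 (r = 0.994), Knstrn (0.991) and Pts (0.991), and for H2-D1 they were Extl1 (0.996), H2-Eb2 (0.989) and Mpnd (0.989). H2-Eb2 is a class II gene of the MHC. For B2m they were Zfp180 (0.991), Fut11 (0.989) and Dnajc10 (0.987). The log2 fold changes of these ran from −0.98 for H2-Eb2 to −0.29 for Dnajc10, a direction that follows from the choice, since H2-K1, H2-D1 and B2m themselves differ by genotype. With the genotype means taken out, r ran from 0.821 for Knstrn to 0.954 for Zfp180, in genes still chosen for a high r. The limma adjusted p of Zfp180 was 0.0548 without Prmt5-null 10617, 0.0517 without 10771, 0.0638 without control CTRL-10650 and 0.0598 without control CTRL-10370. For Tap1 they included Pnp2 (0.984) and Gm14269 (0.980), and for Nlrc5 they were Parp6 (0.984), Slc44a2 (0.972) and the Supt20 entry ENSMUSG00000095832 (0.971).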

How the data were processed

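Total RNA of 4 Prmt5-null and 4 control iGB cultures was sequenced, 1 library a mouse. The authors trimmed reads with Trimmomatic 0.32, aligned them with STAR 2.3.0e to GRCm38, then counted reads with 1 mapped place in exons with featureCounts 1.4.4. The table the authors deposited holds a normalized signal, namely counts divided by DESeq2 1.14.1 size factors. All deposited values (100%) came back as whole reads within 0.1 after 1 factor a library. The deposited rMATS files also hold the authors' p-values, FDR, inclusion differences and levels from junction reads alone, which were not used. The authors' inclusion levels were used as deposited.

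Genotypes were compared with limma 3.58.1 in R 4.3.3 (lmFit, then eBayes with trend) on log2(normalized count + 1), for means of at least 10, with Benjamini-Hochberg adjustment over 16250 genes. Of the other genes, 12321 were at 0 in all libraries. Calls at an adjusted p below 0.05 and at least 1.5-fold numbered 1053 in limma, 1091 in edgeR 4.0.16 and 1277 in DESeq2 1.42.0, the latter pair on recovered reads. Single values also had an exact permutation test over libraries. Positions, lengths and transcripts came from GENCODE and promoters from RefSeq, read with Python 3.11.15, pandas 2.3.3 and matplotlib 3.10.9.

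The members and lists were chosen with earlier results of these data known. Named genes are the members, Prmt5, up to 4 largest rises and falls among called genes of each other list, the most abundant gene of each list, and 3 genes most like each of H2-K1, H2-D1, B2m, Tap1 and Nlrc5, some of which are left out. Alternatives changed the pseudocount, filter, scaling, trend, tool, thresholds and libraries. The design puts numbered samples into experiments, and no label ties a sample number to a library. A block for experiment was therefore fitted in all 18 placements.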

Additional observations from a re-analysis of the deposited data

Results flagged for a closer look

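Within a genotype, 7 of 134 groups of 4 values held a library that lay far from the other 3, and chance gives about 1 in 20. Among the class I genes, Tapbp was low in control CTRL-10597 (12503 normalized counts, against 13174 to 13251 in the other controls), and Erap1 was high in control CTRL-10650 (7913, against 7190 to 7212). In Prmt5-null 10617, Gbp3 was low at 3111 (3875 to 4012 in the others). In Prmt5-null 10770, H2-Ab1 was high at 73640 (63661 to 64920). Gcsam was high in Prmt5-null 10771 at 189 (139.9 to 146). H2-Aa was low in control CTRL-10597 at 77144 (86487 to 88405), and Slc44a2 was high in control CTRL-10596 at 3361 (2943 to 2989).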

How the results depend on the processing

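H2-K1, H2-D1, B2m and Prmt5 kept their direction and their call at an adjusted p below 0.05 in 20 of 20 alternatives. The log2 fold change ran from −0.73 to −0.65 for H2-K1, from −0.84 to −0.73 for H2-D1 and from −0.68 to −0.58 for B2m, with adjusted p of at most 0.00264, 0.0027 and 0.00609. H2-T23 was past the threshold in 15 of 20. Without the intensity trend its log2 fold change of −0.52 had an adjusted p of 0.0766, over the alternatives the adjusted p ran from 0.00341 to 0.0801, and leaving out 1 library at a time gave −0.62 to −0.42. In the same way Nlrc5 ran from 0.14 to 0.48 and Erap1 from −0.0017 to 0.0688, and the cause was not tested. Tap1, Tap2 and Tapbp stayed on their side of the threshold in all 20. Members called at 1.5-fold or more were 3, or 2 without control CTRL-10650 and 4 without Prmt5-null 10770, without control CTRL-10597 or with no fold limit. Genes called in all were 1053, against 637 at an adjusted p below 0.01 and 2249 with no fold limit, since those limits count fewer or more genes. Deposited splicing events of the lists were 14, or 8 with at least 20 reads in each library. With a block for experiment, the highest limma adjusted p over the placements was 0.043 for H2-T23, 0.0732 for Pdia3, 0.0696 for Tapbpl, 0.0709 for Ifi35, 0.0711 for H2-Ab1, 0.0617 for Emr1, 0.0669 for Prdm1, 0.052 for Xbp1 and 0.0574 for Sparc. Without the trend the limma adjusted p was 0.0529 for H2-Q4, 0.107 for Pdia3, 0.0753 for Tapbpl, 0.0946 for Ifi35, 0.0563 for H2-Ab1, 0.094 for Prdm1, 0.0798 for Xbp1, 0.0895 for Sparc, 0.0694 for Col1a2 and 0.0617 for Emr1. Without the filter the limma adjusted p was 0.0581 for Pdia3, 0.0558 for Tapbpl, 0.0539 for Ifi35, 0.0569 for H2-Aa, 0.0925 for H2-Ab1 and 0.0625 for Emr1. Quantile normalization gave adjusted p of 0.0588 for Tapbpl and 0.0529 for Emr1, scaling to totals 0.0626 for Prdm1, and edgeR 0.0504 for Tapbpl. Gzmb, with few reads, reversed to −0.21 in edgeR, −0.19 in DESeq2, −0.02 without Prmt5-null 10770 and −0.52 without control CTRL-10597, against 0.22 and a highest value of 0.70, and the cause was not tested. Under the scalings the median over all genes stayed between −0.0049 and 0.0092.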

Other observations

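MHC class II genes, which present peptides from outside the cell to helper T cells, were followed in a list of 10. In that list 3 were lower and 0 higher at a limma adjusted p below 0.05, against 7.33% and 6.51% of all genes. At an unadjusted limma p below 0.05 there were 5 lower and 0 higher, edgeR gave 3 and 0, and DESeq2 gave 5 and 0. Of all 16250 genes these gave 2390 and 2365, 1174 and 1100, and 1551 and 1524. H2-Oa, part of a brake on class II loading, had 1684 ± 120 normalized counts in Prmt5-null and 2967 ± 206 in control iGBs (SD, n = 4), with a log2 fold change of −0.82 (limma adjusted p = 0.000129). H2-Aa (−0.34, limma adjusted p = 0.0192) and H2-Ab1 (−0.33, limma adjusted p = 0.0395), the chains of the I-A molecule, were also lower. H2-Eb2, a class II gene outside this list, had a larger fall, with −0.98 (limma adjusted p = 0.000186). For H2-Aa the adjusted p was 0.0591 without Prmt5-null 10617, 0.0681 without 10771, 0.0572 without control CTRL-10650, 0.0565 without CTRL-10370 and 0.0567 without CTRL-10596. For H2-Ab1 it was 0.102 without Prmt5-null 10617, 0.0695 without 10618, 0.112 without 10771, 0.0844 without control CTRL-10650, 0.106 without CTRL-10370 and 0.0986 without CTRL-10596. Cd74, the most abundant, had −0.23 (limma adjusted p = 0.149). It passed the threshold in DESeq2 alone (adjusted p = 0.0243), and after quantile normalization its log2 fold change was −0.02 (limma adjusted p = 0.953).

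Ciita, the class II transactivator and a relative of Nlrc5, had deposited rMATS events too, chosen here after their values were seen and given with no test. The level of a skipped exon was 0.967 to 0.977 in controls and 0.788 to 0.834 in Prmt5-null iGBs, on at least 510 reads a library, where the order of the groups is again read from a figure legend.

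Among germinal center markers, 2 of 6 were lower, Gcsam (log2 fold change −1.49, limma adjusted p = 0.000267) and S1pr2 (−0.71, limma adjusted p = 0.00486), and 1 was higher, Fas (0.47, limma adjusted p = 0.00504). At an unadjusted limma p below 0.05 there were 2 lower and 2 higher, edgeR gave 2 and 1, and DESeq2 gave 2 and 2. Of all 16250 genes, 7.33% were lower and 6.51% higher in limma. The other counts over all genes were 2390 and 2365 unadjusted, 1174 and 1100 by edgeR, and 1551 and 1524 by DESeq2. Among plasma cell markers, 2 of 5 were lower and 0 higher, against the same shares, with 3 and 0 at an unadjusted limma p below 0.05 (2390 and 2365 of all 16250 genes), 2 and 0 by edgeR and 3 and 0 by DESeq2. The 2 lower in limma were Prdm1 (log2 fold change −0.48, limma adjusted p = 0.0428) and Xbp1 (−0.45, limma adjusted p = 0.0305). For Prdm1 the adjusted p was 0.099 without Prmt5-null 10617, 0.073 without 10770, 0.108 without CTRL-10650, 0.123 without CTRL-10596 and 0.0851 without CTRL-10597. For Xbp1 it was 0.0553 without Prmt5-null 10617, 0.0508 without 10770, 0.085 without 10771, 0.0815 without CTRL-10650, 0.0905 without CTRL-10596 and 0.061 without CTRL-10597. The sums of the list were 25528, 31174, 23641 and 28301 normalized counts in the Prmt5-null and 40301, 29920, 45657 and 34930 in the control libraries, which overlap.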
